A study of Mus musculus with 6 samples.

Results

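The genes described here carry out the synthesis, regulation, transport and export of cholesterol. They are 29 genes taken by symbol from a table of 55450 gene identifiers, all 29 of which were found and passed the filter on low counts that left 27939 genes in the test. In a series of adult mouse cerebral cortex, polyadenylated RNA was sequenced from 3 libraries labelled heterozygous for Setd5 and 3 labelled wild type. Setd5 encodes a SET-domain chromatin protein. The labels state adult tissue and heterozygosity, but not the allele, the strain or the sex, and whether each library is another animal is not given either. Each p-value hence weighs a difference against the scatter of these 6 libraries, part of which may be technical.

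Cholesterol does not cross the blood-brain barrier in lipoproteins, so the brain makes its own from acetyl-CoA through mevalonate, farnesyl diphosphate, squalene and lanosterol. Enzyme genes of this route are switched on by SREBP transcription factors, which the escort protein Scap carries to the Golgi and the Insig proteins hold back in the endoplasmic reticulum when sterols are plentiful. Oligodendrocytes make much of it for myelin, astrocytes export it on apolipoprotein E through ABC transporters, and neurons take up such particles through receptors such as Lrp1 and dispose of the excess by hydroxylation through Cyp46a1. The question was whether the steps of this system differed between cortex with a heterozygous Setd5 gene and wild type cortex.

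Promoter windows of the members were read because SREBPs act at DNA together with the factor NF-Y, whose site holds the letters CCAAT. Of the 29 members 24 had a window in the RefSeq table (GRCm38.p6), and the 250 bases before the start were searched on both strands. Fdps, Fdft1, Sqle, Stard4 and Abcg1 had none. CCAAT or its reverse ATTGG was found in 14 of 15 synthesis genes and 4 of 5 regulators, but in 1 of 4 genes of transport, uptake, export and turnover, which was Cyp46a1. The share was 37.5% over all 27025 genes with a window and 33.8% over all 32851 windows, some genes having several. TCACNCCAC, the core of a sterol regulatory element, was found in 1 of the 24 members, Hmgcs1, and in 1.22% of all genes with a window. A direct repeat of AGGTCA with 4 bases between the copies, the element read by LXR receptors, was in none of the 24 members. It was in only 0.0148% of all genes with a window, so its absence from so few members says little. A match is a string of letters and not a measured binding site. Only these exact strings were searched, so variants of an element that differ by a base were not counted. The absence of a match hence does not show that a promoter lacks the element.

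Shown here are the windows of Hmgcs1, the most abundant enzyme gene and the member with both kinds of match, and of Mvd and Ebp from an early and a late step. The window of the exporter Abca1, in which no exact match was found, is shown as well. None of these holds an annotated exon. Each runs 5′ to 3′ along the gene's strand, with matches in capitals. The positions are chr13:119690101-119690350 on the plus strand, chr8:122443423-122443672 on the minus strand, chrX:8193513-8193762 on the minus strand and chr4:53159896-53160145 on the minus strand.
Hmgcs1: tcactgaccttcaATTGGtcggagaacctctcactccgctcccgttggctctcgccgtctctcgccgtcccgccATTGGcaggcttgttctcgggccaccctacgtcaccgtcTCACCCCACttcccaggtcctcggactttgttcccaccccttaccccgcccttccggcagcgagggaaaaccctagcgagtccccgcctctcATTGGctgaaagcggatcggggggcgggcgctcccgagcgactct
Mvd: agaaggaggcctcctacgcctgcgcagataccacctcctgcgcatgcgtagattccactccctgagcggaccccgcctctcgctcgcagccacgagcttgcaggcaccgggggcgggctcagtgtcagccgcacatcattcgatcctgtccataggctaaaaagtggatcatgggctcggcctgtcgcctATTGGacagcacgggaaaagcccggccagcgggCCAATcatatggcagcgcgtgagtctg
Ebp: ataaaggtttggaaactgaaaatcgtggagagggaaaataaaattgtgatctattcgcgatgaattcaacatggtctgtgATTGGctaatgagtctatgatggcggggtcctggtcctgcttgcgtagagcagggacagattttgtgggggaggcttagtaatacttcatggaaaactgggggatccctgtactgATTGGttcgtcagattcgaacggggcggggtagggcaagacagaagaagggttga
Abca1: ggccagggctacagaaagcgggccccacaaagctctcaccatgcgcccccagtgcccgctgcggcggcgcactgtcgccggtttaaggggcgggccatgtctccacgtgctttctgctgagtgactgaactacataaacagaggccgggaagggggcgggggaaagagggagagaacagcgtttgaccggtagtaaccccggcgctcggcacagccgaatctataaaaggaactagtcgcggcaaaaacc
In Hmgcs1 the sterol element core begins 137 bases before the start, between ATTGG matches at 176 and 45 bases and after another at 237 bases. Mvd held ATTGG at 60 and CCAAT at 27 bases, and Ebp held ATTGG at 170 and 55 bases.

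Counts per library summed to between 82850628 and 92860628. Levels are given as CPM, the reads of a gene scaled to a fixed total through the effective library size. A count of 0 would allow up to 0.0362 CPM in the smallest library, and no member was at 0 in any library. As a check of the labels, Setd5 was at 69.5, 68.7 and 75.3 CPM in the heterozygous libraries and at 111, 97.0 and 108 CPM in those of wild type, each in replicate order as in all such values below (log2 difference -0.56, SE 0.07, adjusted p = 0.258 in edgeR's quasi-likelihood test). Excitatory neuron markers were present in all libraries, as the label of cortex calls for. Heterozygous replicate 3 and wild type replicate 3 had Xist far above the Y-linked genes and the other libraries the reverse, so each genotype held 1 library of that kind. In a list of 8 striatum markers wild type replicate 3 was the highest library, with a mean log2 level of 1.89 against the average of wild type. Wild type replicates 1 and 2 were at -1.61 and -0.28, and the heterozygous libraries at -1.41, -0.32 and 0.67, so the spread was wide in both genotypes. The title of wild type replicate 3 is also built differently from the other titles. Step medians and the members with the largest differences are given with and without this library.

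Levels of the members were compared with each other only per kilobase of exon. Apoe, which encodes apolipoprotein E, stood first at 672 CPM per kilobase (mean of 6 libraries). Hmgcs1, which makes the precursor of mevalonate, followed at 106 CPM per kilobase. Next came Cyp46a1 at 36.0, Cyp51 at 29.9, Msmo1 at 23.3 and Sc5d at 20.6 CPM per kilobase, whose ranges over the libraries overlapped from each to the next. The regulator genes spread from the upper to the lower part of the order, with Srebf2 at 17.1, Insig2 at 16.1, Insig1 at 12.05, Scap at 5.19 and Srebf1 at 2.93 CPM per kilobase. Srebf2, the SREBP of sterol synthesis, was thus above Srebf1, the SREBP of fatty acid synthesis, with ranges that did not overlap. Of the 28 neighbouring pairs in the order 22 had overlapping ranges. The 6 gaps lay below Apoe, Hmgcs1, Insig2, Tm7sf2, Abca1 and Idi1.

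**Figure D1:**
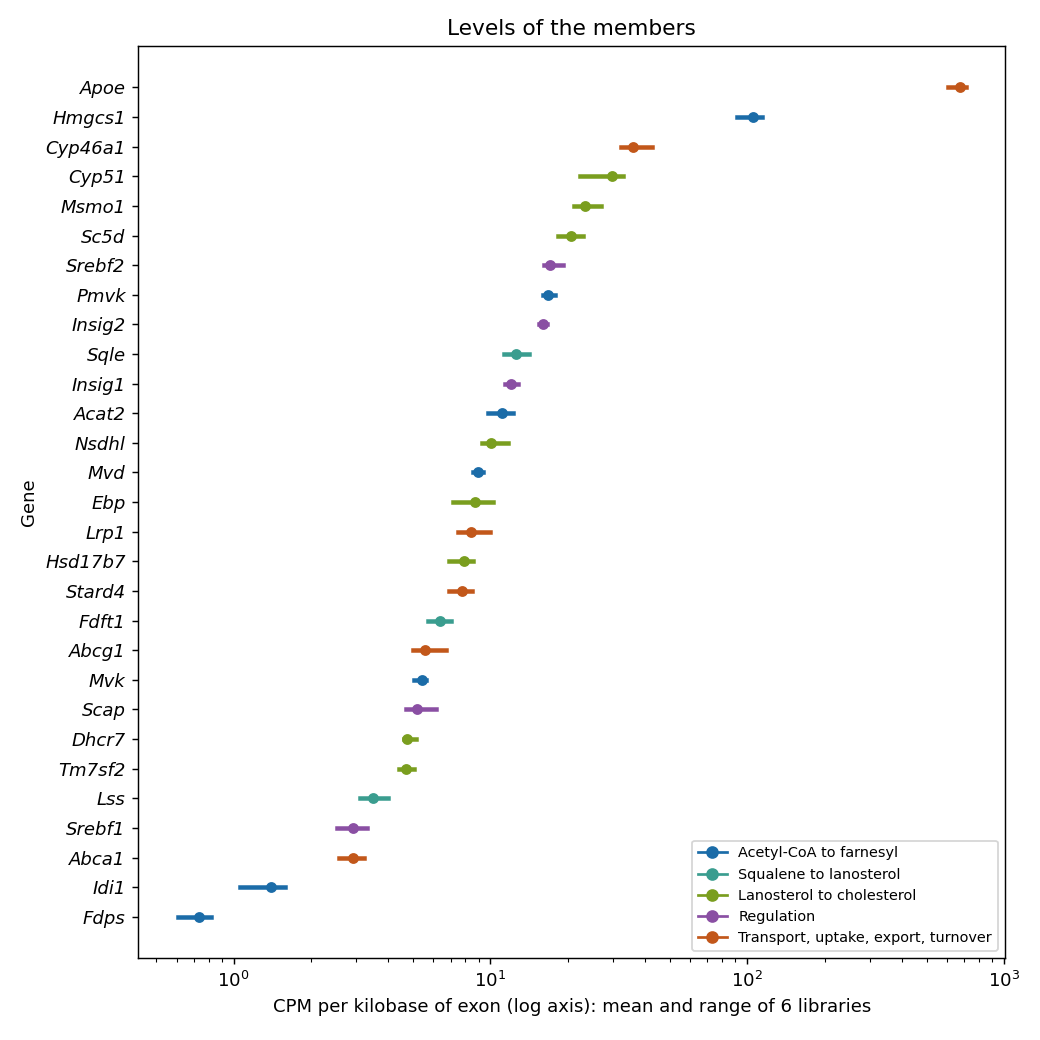
CPM per kilobase of exon for the 29 members, on a log axis, with the mean of the 6 libraries as a point and their range as a bar, coloured by step. Apoe and Hmgcs1 stand above all others, and Idi1 and Fdps stand at the bottom.

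The lowest levels were those of Idi1, the isopentenyl diphosphate isomerase, at 1.40 and Fdps, the farnesyl diphosphate synthase, at 0.736 CPM per kilobase. Both share sequence with other annotated genes, at an identity of at least 95% over at least 100 bases. In Fdps 76.8% of the longest coding transcript had such a copy in 5 genes elsewhere and 81.6% lay in a gene that overlaps it. In Idi1 the shares were 22.6% in copies elsewhere and 10.7% in an overlapping gene. Acat2 shared 65.6% with Acat3 and Tcp1. Fdft1 shared 33.7% with Gm6781 and 20.9% with the overlapping Ctsb. Smaller shares lay in overlapping genes for Scap (18.9%), Hmgcs1 (16.2%, Gm48342), Lss (5.59%), Cyp51 (4.22%) and Srebf1 (2.54%). Insig1 shared 7.01% with a copy elsewhere, Gm37784. How reads with several matches were counted is not given in the sources used here, so the levels of these genes are uncertain. The part of the shared sequence in their counts was not tested. Exon length was the union over all annotated transcripts, which understates genes with many rarely used exons.

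None of the 29 members differed between the genotypes at an adjusted p under 0.05. In edgeR's quasi-likelihood test, with Benjamini-Hochberg adjustment over all genes tested, the smallest adjusted p of a member was 0.864, and 0% of all genes were called. At an unadjusted p under 0.05 there were 0 members, where 5.83% of all genes tested passed. DESeq2, which called 0.236% of the genes it gave an adjusted p, limma-voom with quality weights and edgeR's likelihood ratio test each called 0 members. The libraries of the genotypes did not overlap in 2 members, both higher in heterozygous cortex, against 11.7% of all genes tested (5.88% higher and 5.85% lower). Among the 15161 genes tested in the members' range of mean CPM, 6.42% had an unadjusted p under 0.05 and 12.2% had groups that did not overlap. The counts of members were near or below these backgrounds and single out no member.

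Each interval gives the differences that the scatter of these libraries leaves possible for that member alone. The intervals were not adjusted for the number of members. For each of the 29 members the 95% interval of the heterozygous level included the wild type level and lay within a 1.5-fold change in either direction. The lowest lower bound was 74.6% of wild type, for Lrp1, and the highest upper bound was 137%, for Fdps. The median log2 difference was 0.022 over the members and -0.00053 over all genes tested, and the median size regardless of sign was 0.078 and 0.12. Over the 15161 genes tested in the members' range of mean CPM that size was 0.073, so the members were not below genes of like level. Fitted levels were higher in heterozygous cortex in 22 members and lower in 7, where 49.9% of all genes tested were higher.

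**Figure D2:**
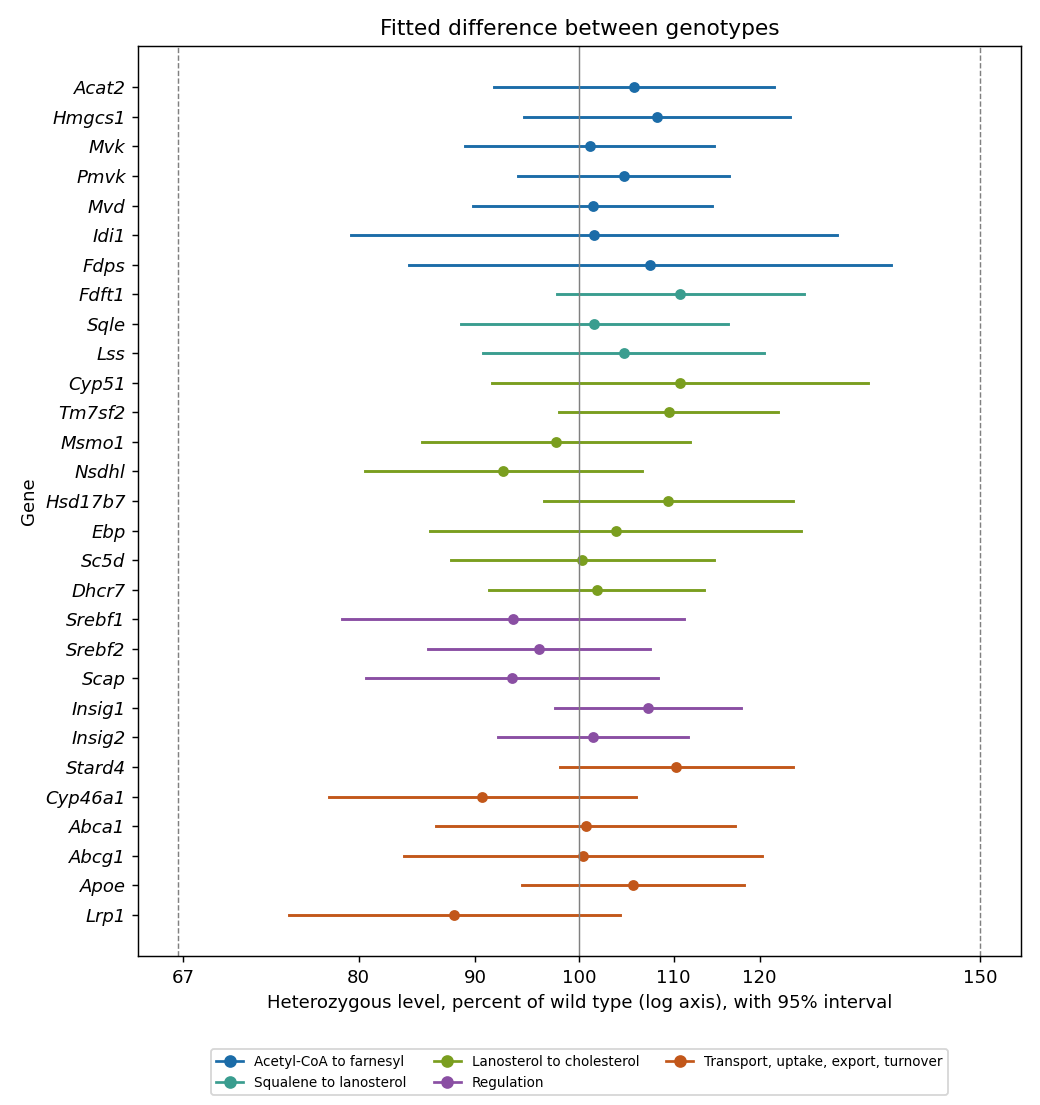
Fitted level in heterozygous cortex as a percent of wild type (points, log axis) with its 95% interval (bars) for each member, coloured by step. Dashed lines mark a 1.5-fold change, and all 29 intervals cross 100% and stay between the dashed lines.

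Genes from acetyl-CoA to farnesyl diphosphate were all slightly above wild type in the fit, with 7 of 7 higher, a median log2 difference of 0.065, and none past the test. Without wild type replicate 3 the median was 0.016 and Idi1 was lower, at -0.14, and without heterozygous replicate 3 the median was 0.025. The member with the largest difference here was Hmgcs1 (ENSMUSG00000093930.2, chromosome 13, 119690379 to 119708260, plus strand), the synthase ahead of mevalonate. Its level was 504, 524 and 486 CPM in the heterozygous libraries, against 458, 524 and 418 CPM in those of wild type. Wild type replicate 2 was as high as the heterozygous libraries and wild type replicate 3 was the lowest of the 6, so the groups overlapped. The log2 difference was 0.11 (SE 0.086), or 0.040 without wild type replicate 3, and the 95% interval ran from 94.5% to 124% of wild type.

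The other genes of this stretch differed by less than their errors. Acat2, the thiolase that joins acetyl-CoA units, was at 29.1 ± 2.31 against 27.5 ± 2.56 CPM (mean ± SD of 3 libraries per genotype). The kinases Mvk and Pmvk, which phosphorylate mevalonate in turn, were at 14.6 ± 0.244 against 14.4 ± 0.833 CPM and at 29.5 ± 0.990 against 28.2 ± 1.29 CPM. Mvd, the decarboxylase that yields the isoprene unit, was at 16.8 ± 0.625 against 16.6 ± 0.714 CPM with an interval from 89.8% to 114%, so this step was measured closely. Idi1 was at 4.94 ± 0.203 against 4.87 ± 1.01 CPM and Fdps at 3.21 ± 0.322 against 2.99 ± 0.443 CPM. Both of the latter have the lowest CPM of the members and the widest intervals of the synthesis genes, from 79.4% to 129.8% and from 84.2% to 137%.

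Between squalene and lanosterol, 3 of 3 genes had higher fitted levels, with a median log2 difference of 0.064. Without wild type replicate 3 the median was 0.00062 and Sqle was lower, at -0.042, and without heterozygous replicate 3 the median was 0.016. Fdft1 (ENSMUSG00000021273.10, chromosome 14, 63145150 to 63179578, minus strand), the squalene synthase that commits farnesyl units to sterols, had the largest. It was at 27.0, 29.7 and 28.3 CPM in the heterozygous libraries, against 24.5, 28.0 and 24.2 CPM in those of wild type. The lowest heterozygous library was below wild type replicate 2, so the groups overlapped, and the log2 difference was 0.15 (SE 0.08, edgeR adjusted p = 0.864), or 0.11 without wild type replicate 3. Sqle, the squalene epoxidase and a control point of the route, was at 70.3 ± 2.97 against 69.2 ± 8.25 CPM (SD, n = 3 each). Lss, which closes the ring to lanosterol, was at 38.5 ± 3.86 against 36.8 ± 2.99 CPM.

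From lanosterol to cholesterol 6 of 8 genes were higher and 2 lower, with a median log2 difference of 0.039, or 0.0012 without wild type replicate 3. Cyp51 (ENSMUSG00000001467.5, chromosome 5, 4081145 to 4104746, minus strand), the lanosterol demethylase, had the largest difference. Its level was 134, 145 and 136 CPM in the heterozygous libraries, against 133, 145 and 98.5 CPM in those of wild type. The outlying value was the low one of wild type replicate 3, and the other 5 libraries lay between 133 and 145 CPM. The log2 difference was 0.15 (SE 0.12) with that library and 0.00086 without it, so the place of Cyp51 in this step rested on 1 library. Without wild type replicate 2 the log2 difference of Cyp51 was 0.26.

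Tm7sf2 (ENSMUSG00000024799.16, chromosome 19, 6062821 to 6068373, minus strand), a sterol reductase that acts on the product of Cyp51, was 1 of the 2 members whose groups did not overlap. It was at 20.6, 21.9 and 22.1 CPM in the heterozygous libraries, against 19.4, 19.6 and 20.1 CPM in those of wild type. The gap between the groups was small, from the highest wild type library at 20.1 to the lowest heterozygous library at 20.6 CPM. Its log2 difference was 0.13 (SE 0.071, edgeR adjusted p = 0.864), or 0.15 without wild type replicate 3.

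Those with a lower fitted level were Msmo1 and Nsdhl, which together remove methyl groups from the sterol ring. Msmo1, the methylsterol oxidase, was at 141 ± 1.45 against 145 ± 18.3 CPM (SD, n = 3 each). Nsdhl, the X-linked sterol dehydrogenase of the same demethylation, was at 27.5 ± 1.34 against 29.7 ± 3.34 CPM, with a log2 difference of -0.11, or -0.17 without wild type replicate 3. In both the wild type spread was wider than the difference, with wild type replicate 2 the highest library. Hsd17b7, the reductase that completes the demethylation, was at 42.0 ± 2.28 against 38.4 ± 3.38 CPM, and the isomerase Ebp, also X-linked, at 20.6 ± 0.831 against 19.8 ± 3.57 CPM. Sc5d, the desaturase, was at 100.4 ± 5.68 against 100.1 ± 10.9 CPM and Dhcr7, the reductase that ends one branch of the route, at 27.9 ± 1.64 against 27.4 ± 0.333 CPM. For Dhcr7 the interval ran from 91.3% to 113% of wild type.

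Among the regulators the fitted level was higher in 2 and lower in 3 of 5, with a median log2 difference of -0.059, or 0.0081 without wild type replicate 3. Insig1 (ENSMUSG00000045294.11, chromosome 5, 28071363 to 28078662, plus strand), which retains Scap in the endoplasmic reticulum and is itself a target of SREBPs, was the other member whose groups did not overlap. It was at 37.9, 39.5 and 38.2 CPM in the heterozygous libraries, against 36.4, 36.1 and 35.4 CPM in those of wild type. All heterozygous libraries were above all wild type libraries. The log2 difference was 0.10 (SE 0.06, edgeR adjusted p = 0.872), or 0.089 without wild type replicate 3. Its paralog Insig2 was at 56.2 ± 2.28 against 55.4 ± 1.45 CPM (SD, n = 3 each), with the narrowest spread of the members over the 6 libraries, the highest library being 1.08 times the lowest.

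The transcription factor genes and their escort leaned the other way without passing the test. Srebf2 was at 120.1 ± 1.22 against 125 ± 11.0 CPM and Srebf1 at 15.9 ± 0.884 against 17.1 ± 2.41 CPM (SD, n = 3 each). Scap was at 37.3 ± 2.43 against 39.9 ± 4.94 CPM. In all 3 the highest library was wild type replicate 3. With that library left out, the log2 differences of Srebf2 and Scap were 0.015 and 0.0079, against -0.059 (SE 0.072) and -0.10 (SE 0.095) with it. Srebf1 stayed below wild type, at -0.027 against -0.10 (SE 0.11). These are transcript levels, and SREBP activity depends on cleavage of the protein, which was not measured.

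For transport, uptake, export and turnover 4 of 6 genes were higher and 2 lower, with a median log2 difference of 0.0072, or -0.012 without wild type replicate 3. Lrp1 (ENSMUSG00000040249.15, chromosome 10, 127538161 to 127621148, minus strand), a large endocytic receptor for apolipoprotein E, had the largest difference of all members with all libraries in the fit. Its level was 153, 134 and 133 CPM in the heterozygous libraries, against 166, 133 and 177 CPM in those of wild type. Wild type replicate 2 was as low as the lowest heterozygous library, so the groups overlapped. The log2 difference was -0.18 (SE 0.11, edgeR adjusted p = 0.867). Without wild type replicate 3 it was -0.095, a smaller difference than that of Nsdhl in the same fit. Cyp46a1, the neuronal hydroxylase through which cholesterol leaves the brain, was at 113 ± 7.64 against 124 ± 16.9 CPM (SD, n = 3 each), with the same library order at its extremes, wild type replicate 2 lowest and wild type replicate 3 highest.

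Abca1, which loads cholesterol onto lipid-poor apolipoproteins, was at 30.3 ± 2.77 against 30.1 ± 3.14 CPM (SD, n = 3 each). Abcg1, which loads it onto formed particles, was at 40.8 ± 2.48 against 40.7 ± 7.37 CPM. Their log2 differences were 0.009 (SE 0.10) and 0.0053 (SE 0.12), and the intervals ran from 86.5% to 117% and from 83.7% to 120.3% of wild type. In Abcg1 wild type replicate 3 stood at 135% of the mean of the other wild type libraries, and without it the log2 differences were 0.17 for Abcg1 and -0.072 for Abca1. Apoe, the carrier itself, was at 1476 ± 36.7 against 1398 ± 106 CPM. Stard4, a soluble carrier that moves cholesterol between membranes and is a target of SREBP2, had the smallest unadjusted p of the members, 0.093, at 45.4 ± 2.92 against 41.2 ± 2.66 CPM.

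**Figure D3:**
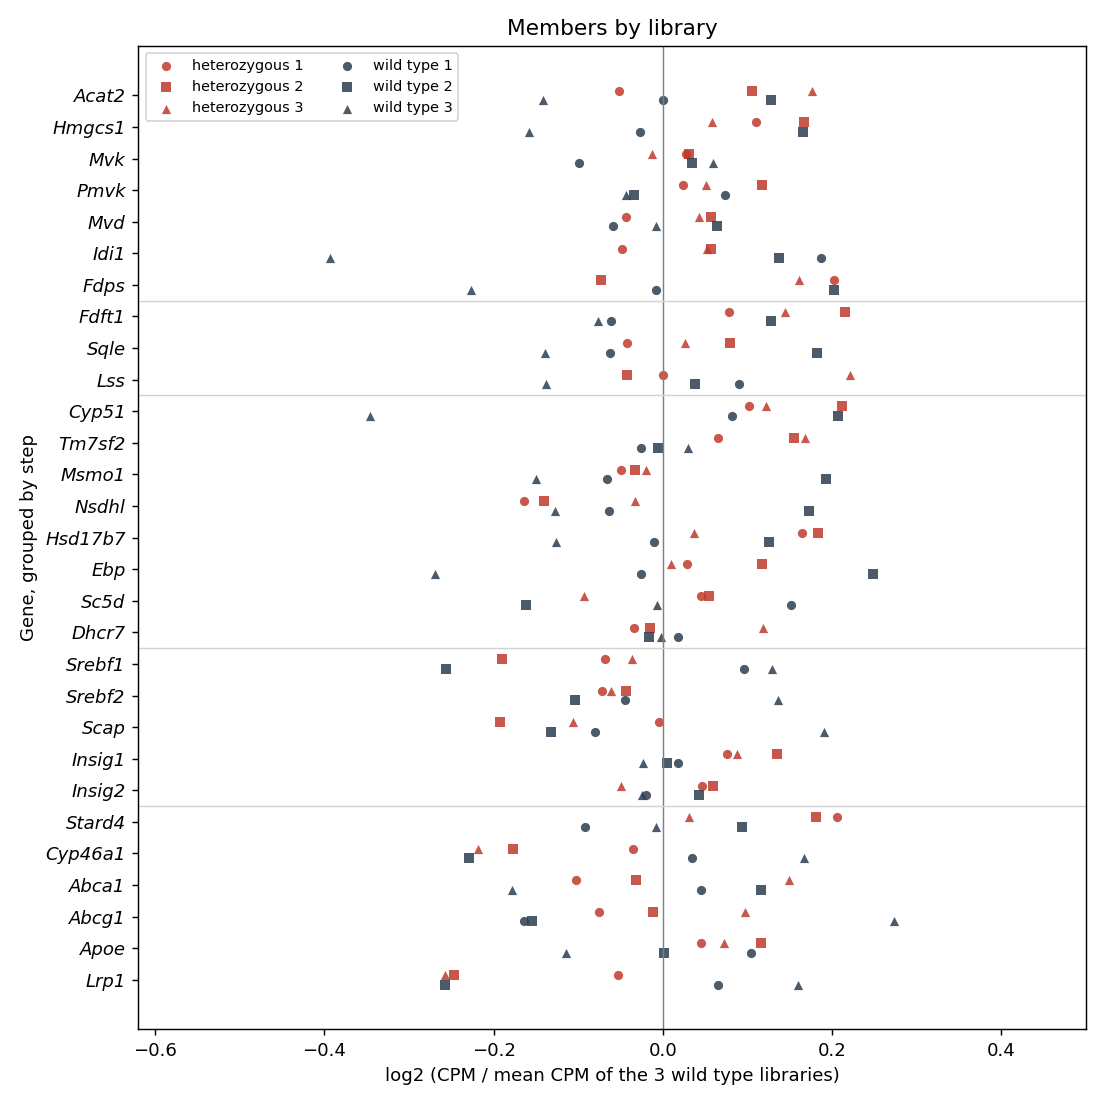
Level of each member in each library as log2 of CPM over the average of wild type, with heterozygous libraries in red and wild type libraries in dark blue, and the marker shape giving the replicate. The wild type triangles (replicate 3) lie at the low end in 12 of the 18 synthesis genes, and Tm7sf2 and Insig1 alone have groups that do not overlap.

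As a group, the synthesis genes were spread more widely within wild type than they differed between the genotypes. The mean log2 level of the 18, set to 0 at the average of wild type, was 0.03, 0.08 and 0.07 in the heterozygous libraries against 0.01, 0.11 and -0.12 in those of wild type. The heterozygous values thus lay inside the wild type range. Wild type replicate 3 was the lowest library in 12 of the 18 genes, where it was lowest in 25% of all genes tested. Against the mean of the other wild type libraries it ranged from 68.0% for Idi1, with 71.1% for Cyp51, 76.4% for Ebp and 79.7% for Fdps, to 106% for Mvk. It was near or above the others in Mvd (99.2%), Sc5d (99.3%), Dhcr7 (99.8%) and Tm7sf2 (103%). In the 11 genes of regulation and transport the same library was the highest in 6, where it was highest in 24.3% of all genes tested. These 6 were Srebf1, Srebf2, Scap, Cyp46a1, Abcg1 and Lrp1. This pattern was noticed in these libraries and was not tested.

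The lean of the synthesis genes above wild type changed with the libraries used. The fitted level was higher in 16 of 18 with all libraries, in 13 of 18 without wild type replicate 3, in 13 of 18 without wild type replicate 1 or in limma-voom, and in 9 of 18 without both libraries that had high Xist, an alternative chosen after seeing the data. The median log2 difference of the 18 was 0.059 with all libraries, 0.0083 without wild type replicate 3, 0.093 without wild type replicate 1, 0.10 without wild type replicate 2, 0.051 in limma-voom and -0.011 without both libraries with high Xist. Without wild type replicate 2, the highest library of the group, the medians of the 3 synthesis steps were 0.091, 0.12 and 0.096. With sex, as read from Xist and the Y-linked genes, as a covariate the count was 16 of 18 and the median 0.063.

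**Figure D4:**
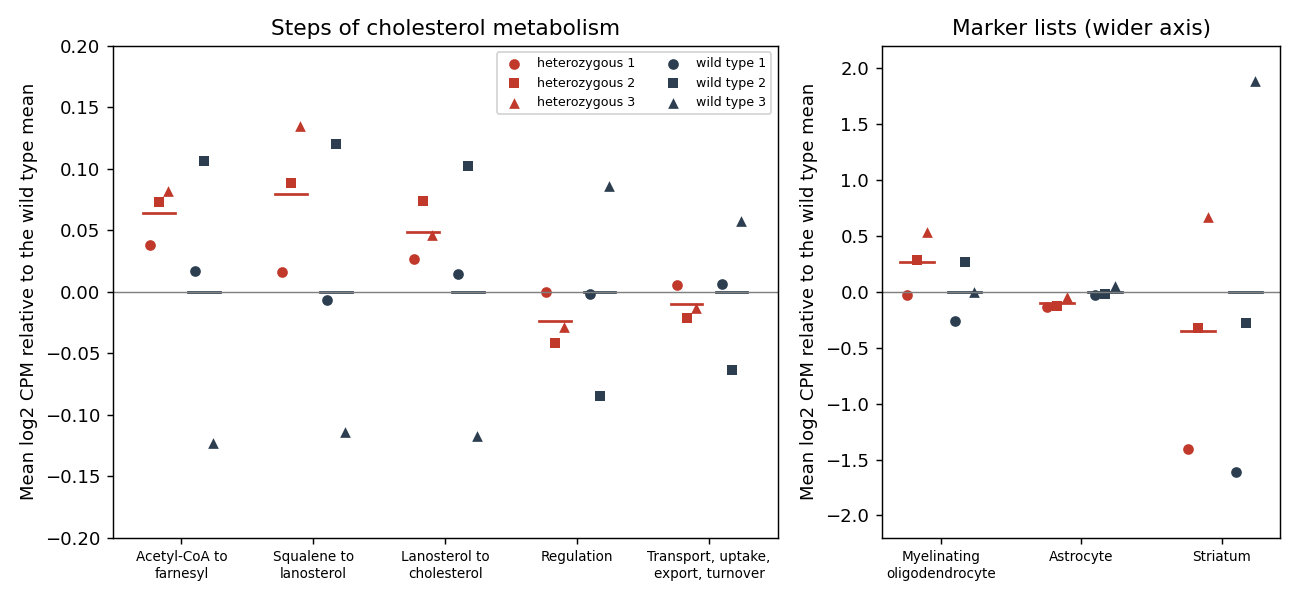
Mean log2 CPM of each step per library, set to 0 at the average of wild type (left), and of 3 marker lists on a wider axis (right), with horizontal bars at the group means. Wild type replicate 3 is the lowest library in each of the 3 synthesis steps and the highest in regulation and in transport.

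Cell type markers moved beside these values. In bulk tissue fewer cells of a type and less RNA per cell cannot be told apart. Myelinating oligodendrocyte markers were higher in the fit in 12 of 12, with a median log2 difference of 0.28, 2 at an unadjusted p under 0.05 and 0 past the adjusted threshold. Their summed level ran from 10869 to 15962 CPM in heterozygous and from 8987 to 11988 CPM in wild type libraries. Their mean level in log2 was -0.03, 0.28 and 0.53 in the heterozygous libraries against -0.26, 0.27 and -0.002 in those of wild type. Wild type replicate 2 was the highest wild type library and heterozygous replicate 1 the lowest heterozygous library both in this list and in the synthesis genes. The other extremes differed. The lowest wild type library was replicate 1 in this list, but replicate 3 in the synthesis genes, at -0.12. The highest heterozygous library was replicate 3 in this list, but replicate 2 in the synthesis genes, at 0.076 against 0.075 in replicate 3. Of 10 astrocyte markers 9 were lower, with a median of -0.072 and summed levels from 4939 to 5273 and from 5183 to 5391 CPM. The 8 striatum markers summed to between 280.3 and 590 CPM in heterozygous and between 189 and 1299 CPM in wild type libraries. With the striatum level as a covariate, added after seeing the data, 15 of 18 synthesis genes were higher and the median was 0.047. Of 8 endothelial genes 7 were lower in the fit, with a median of -0.25, 5 at an unadjusted p under 0.05 and summed levels from 132 to 137 in heterozygous and from 144 to 153 CPM in wild type libraries. All 8 mural genes were lower, with a median of -0.39, 5 at that level and sums from 252 to 259.6 and from 265 to 325 CPM. All 8 meningeal fibroblast genes were lower, with a median of -0.73, 7 at that level and sums from 83.9 to 98.4 and from 89.4 to 193 CPM. All 12 immediate early genes, which respond to neuronal activity, were higher, with a median of 0.73, 8 at that level and sums from 757 to 1398 and from 485 to 996 CPM. None of these genes passed the adjusted threshold, and 5.83% of all genes tested had an unadjusted p under 0.05. Markers of a list may vary together, so such counts are not independent. In the meningeal fibroblast list wild type replicate 3 had a mean log2 level of -0.69, as low as the heterozygous libraries at -0.57, -0.67 and -0.66. Wild type replicates 1 and 2 were at 0.16 and 0.53. No marker of these lists was at 0 in any library, and the part of any of these lists in the members' levels was not tested.

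Around the members, 74 other genes of the pathway were examined, and edgeR's test called 0 of them higher and 0 lower. At an unadjusted p under 0.05 there were 1 higher and 3 lower, where 2.44% of all genes tested were higher and 3.38% lower. Their median log2 difference was -0.014. Processing and turnover of SREBPs, with the proteases Mbtps1 and Mbtps2 and the ubiquitin ligases of the endoplasmic reticulum, had 0 of 10 at that level and a median of -0.028. The 17 genes of sterol transport and storage had 0 and a median of 0.00033, and the 6 LXR receptors and targets 0 and a median of -0.019. The 10 lipoprotein and receptor genes had 0 and a median of -0.035, the 4 other exporters 0 and -0.083, and the 10 enzymes of isoprenoid and sterol branches 0 and 0.046. Of the 5 oxysterol enzymes 1 was lower at that level.

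The fatty acid enzymes, classic targets of Srebf1, held 3 of the 4 genes with an unadjusted p under 0.05. Of these 12 genes 11 were lower in the fit and 1 higher, with a median log2 difference of -0.065. The libraries of the genotypes did not overlap in 4 lower and 1 higher of the 12, against 5.85% lower and 5.88% higher over all genes tested. Scd1, the desaturase that makes monounsaturated fatty acids, was at 152, 161 and 152 CPM in the heterozygous libraries, against 203, 195 and 173 CPM in those of wild type. All heterozygous libraries were below all wild type libraries, with a log2 difference of -0.30 (SE 0.074, edgeR adjusted p = 0.748) and an adjusted p in DESeq2 of 0.096. Over the alternatives the edgeR and limma-voom adjusted p of Scd1 ran from 0.133 without wild type replicate 3 to 0.9999 without heterozygous replicate 1. Fasn, the fatty acid synthase, was at 99.8, 98.2 and 105 CPM in the heterozygous libraries, against 115, 112 and 119 CPM in those of wild type. Its groups did not overlap either, with a log2 difference of -0.20 (SE 0.059, edgeR adjusted p = 0.797).

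Elovl6, which lengthens the product of Fasn, was the member of that list on the higher side. It was at 99.1, 108 and 102 CPM in the heterozygous libraries, against 97.6, 94.5 and 83.0 CPM in those of wild type. Its groups did not overlap, with a log2 difference of 0.17 (SE 0.074, edgeR adjusted p = 0.855). Cyp27a1, a mitochondrial sterol hydroxylase of the oxysterol list, was at 2.11, 2.72 and 3.85 CPM in the heterozygous libraries, against 3.19, 4.78 and 4.58 CPM in those of wild type. The highest heterozygous library exceeded the lowest wild type library, and the log2 difference was -0.53 (SE 0.23, edgeR adjusted p = 0.855). Without heterozygous replicate 1 it was -0.35 and without heterozygous replicate 3 it was -0.80. Neither these 4 genes nor any member passed a test adjusted over all genes in edgeR or DESeq2.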

How the data were processed

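Messenger RNA of adult mouse cortex was measured in 6 libraries, 3 per genotype, grouped by the genotype label, with replicate numbers in record order that pair nothing. The authors deposited raw counts of reads per gene, 1 table per library. The submitters' processing notes name Bowtie2 2.3.4.3, featureCounts, DESeq2 and FastQC, and the builds mm10 and GRCm38.p6, and TruSeq v2 libraries, per the labels' protocols, do not mark strand. The strand setting and the treatment of reads with several matches are not known from these notes.

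All 55450 identifiers matched GENCODE M21, and of several identifiers per symbol the one with most counts was used. Genes passing edgeR's filterByExpr (minimum count 10, minimum total 15) were scaled with TMM and tested with glmQLFit and glmQLFTest (edgeR 4.0.16, R 4.3.3), with no covariate and a Benjamini-Hochberg threshold of 0.05. The fit's common BCV, the coefficient of biological variation, was 16.1%. Standard errors and 95% intervals come from that fit. List levels used log2 CPM with a prior count of 1. The floor for a count of 0 is 3 counts and covers counting error only. Between libraries of a group the chi-square of the counts per gene was 11.8 at the least, so none is a repeat of another.

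The members, the other lists and the naming rule were chosen with earlier results of these data known. Every member is named. Values per library are given for members at an unadjusted p under 0.05, those whose groups do not overlap and the largest difference of each step. Up to 10 other pathway genes at an unadjusted p under 0.05 are named. The 29 members do not make up the whole pathway. Markers of oligodendrocytes, astrocytes and striatum, of vessels and meninges, and immediate early genes are described in the text. Of the remaining lists fixed with them, median log2 differences were -0.05 for oligodendrocyte precursors, 0.04 for excitatory and 0.09 for inhibitory neurons, -0.16 for microglia and -0.52 for choroid plexus. All 10 microglia genes were lower, 2 at an unadjusted p under 0.05 in edgeR and 4 with groups that did not overlap. Over all genes tested these shares were 5.83% and 11.7%. The mean log2 level of the microglia list was -0.20, -0.17 and -0.08 in heterozygous against 0.05, -0.01 and -0.04 in wild type libraries. Alternatives were other scalings, filters and tests (DESeq2 1.42.0, limma 3.58.1), sex or striatum level as a covariate, and libraries left out.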

Additional observations from a re-analysis of the deposited data

How the results depend on the processing

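No member passed the adjusted threshold of 0.05 under any of the 17 alternatives, where the smallest adjusted p of a member was 0.475, and 14 of the 29 kept their direction under all of them. Single members reached an unadjusted p under 0.05 in some alternatives. Without wild type replicate 2 edgeR's unadjusted p was 0.023 for Hmgcs1, 0.022 for Fdft1 and 0.034 for Hsd17b7. Their adjusted p was 0.526, 0.526 and 0.544. Without both libraries with high Xist edgeR's unadjusted p was 0.0498 for Nsdhl (adjusted p = 0.632). No paired analysis was possible because the labels give no batch, litter or pairing of the libraries. Genes called over the whole table went from 0 higher and 0 lower to 1 and 5 when any gene with a count was tested, 14 and 45 with DESeq2, 13 and 16 with the likelihood ratio test and 1 and 1 with limma-voom with quality weights. With a library left out the lower count ran from 0 to 2 (without wild type replicate 2). Setd5 passed the threshold without the filter (log2 difference -0.57), in DESeq2 (-0.57), the likelihood ratio test (-0.56) and limma-voom (-0.59). The causes of these changes were not tested.

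Without both libraries with high Xist, which leaves 2 per group, 9 synthesis members were above wild type against 16, the median log2 difference of the squalene step was -0.045 and that of the regulators 0.016. The log2 differences that turned over were those of Acat2 (-0.037), Idi1 (-0.16), Fdps (-0.029), Sqle (-0.045), Lss (-0.085), Ebp (-0.044), Dhcr7 (-0.026), Srebf2 (0.016), Scap (0.011) and Abca1 (-0.15). With 1 library left out, the median of the regulators ran from -0.11 to 0.0081 (without wild type replicate 3) and that of transport from -0.059 (without heterozygous replicate 3) to 0.049. The members that turned over then had ranges of -0.031 to 0.046 (Mvk), -0.0085 to 0.049 (Mvd), -0.14 to 0.13 (Idi1), -0.042 to 0.12 (Sqle), -0.025 to 0.12 (Lss), -0.10 to 0.069 (Msmo1), -0.065 to 0.19 (Ebp), -0.075 to 0.087 (Sc5d), -0.029 to 0.050 (Dhcr7), -0.11 to 0.015 (Srebf2), -0.16 to 0.0079 (Scap), -0.072 to 0.067 (Abca1) and -0.070 to 0.17 (Abcg1).

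Members near 0 changed sign with small shifts. With upper-quartile factors Sc5d was at -0.0070, Abca1 at -0.0022 and Abcg1 at -0.0049. With library totals Mvk was at -0.00055, Sc5d at -0.013, Abca1 at -0.0049 and Abcg1 at -0.012. Without the filter Sc5d was at -0.0058, Abca1 at -0.00091 and Abcg1 at -0.0055. In limma-voom Idi1 was at -0.045, Lss at -0.0055, Sc5d at -0.011 and Abca1 at -0.041. Adjusted for the striatum level, Sc5d was at -0.011. With 3 libraries per genotype, differences within the interval given for each member could not be told from no difference. Larger differences can be missed too, because the threshold was adjusted over all genes tested. Setd5 had an interval from 60.6% to 75.6% of wild type, yet its adjusted p in edgeR's quasi-likelihood test was 0.258.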
